A study of Homo sapiens with 16 samples.

Results

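Heat shock and DNAJ chaperone genes were read across all 16 libraries of a study of FLII (flightless I, which remodels actin and is related to gelsolin) in lung cells. The members are the genes whose symbols name an HSP90, an HSP70 or HSP110 (HSPA, HSPH1), a small heat shock protein (HSPB), the chaperonin pair HSPD1 and HSPE1, or a J-domain protein of type A, B or C (DNAJA, DNAJB, DNAJC). They number 79 of the 23709 genes in the tables: 26 DNAJC, 16 HSPA and HSPH1, 13 DNAJB, 10 HSP90 including pseudogenes, 8 HSPB, 4 DNAJA, and HSPD1 with HSPE1. The rule uses the symbol alone and no measured value. In all, 10 members carry non-coding (NR) accessions, most of them pseudogenes.

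H1299 cells, from a non-small cell lung carcinoma, had received a plasmid for Flag-tagged FLII (FLII overexpression) or the empty plasmid (vector) by lipid transfection. HBE, a line labelled as lung epithelial, carried FLII short hairpin RNA from a lentivirus in a stable way (FLII knockdown) or was the control named NC. Both lines were grown in the same serum-containing medium and were at passage 15 to 18. How many clones each state held is not given. From each of these 4 groups, mRNA, RNA pelleted with ribosome-nascent chain complexes (RNC), cytosolic RNA and nuclear RNA were sequenced, with 1 library per group. H1299 overexpression came from a transient transfection, HBE knockdown from a stable line, and the lines differ in more than FLII, so line and type of FLII change cannot be told apart.

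HSP70 proteins bind short stretches of unfolded protein in a cycle driven by ATP. J-domain proteins bring them clients and trigger ATP hydrolysis, HSP110 proteins exchange their nucleotide, HSP90 acts later on kinases and steroid receptors, HSPD1 and HSPE1 fold proteins inside mitochondria, and small heat shock proteins hold unfolded proteins without ATP. Each compartment has its own set: HSP90B1 (GRP94), HSPA5 (BiP), DNAJB9, DNAJB11, DNAJC3 and DNAJC10 work in the endoplasmic reticulum (ER), whose membrane is continuous with the nuclear envelope, and HSPA9 and DNAJA3 work in mitochondria. Heat shock factor 1 binds repeats of the unit GAA in front of heat-inducible genes, whereas ER genes respond to unfolded protein through the ER stress element.

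The 2 kinds of promoter are shown as examples of these elements. The heat-inducible list has 13 members, among them HSPA8, which is constitutive, while the constitutive HSP90AB1 is not on it. HSPD1 and HSPE1 stand both on the heat-inducible list and on the mitochondrial list. The 3 sequences are the 250 bases before a RefSeq start site (GRCh38.p14, sense strand of the gene), in lower case with motif matches in capitals. Of 2 HSP90AA1 start sites only the one shown held a heat shock element. HSP90AA1 is at chr14:102087045-102087294 on the minus strand, HSP90B1 at chr12:103930160-103930409 on the plus strand and HSPA5 at chr9:125241344-125241593 on the minus strand.
HSP90AA1: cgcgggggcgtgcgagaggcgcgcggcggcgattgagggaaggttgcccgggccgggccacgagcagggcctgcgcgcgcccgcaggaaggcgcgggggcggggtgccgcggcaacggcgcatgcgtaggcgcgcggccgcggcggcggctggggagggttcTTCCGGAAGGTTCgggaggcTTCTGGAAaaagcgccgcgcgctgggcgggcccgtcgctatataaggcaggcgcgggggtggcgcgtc
HSP90B1: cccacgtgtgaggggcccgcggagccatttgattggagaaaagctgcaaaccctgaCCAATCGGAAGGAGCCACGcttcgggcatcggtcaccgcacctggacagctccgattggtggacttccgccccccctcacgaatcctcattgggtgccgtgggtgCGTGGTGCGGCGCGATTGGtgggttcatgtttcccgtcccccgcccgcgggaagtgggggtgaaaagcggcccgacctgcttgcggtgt
HSPA5: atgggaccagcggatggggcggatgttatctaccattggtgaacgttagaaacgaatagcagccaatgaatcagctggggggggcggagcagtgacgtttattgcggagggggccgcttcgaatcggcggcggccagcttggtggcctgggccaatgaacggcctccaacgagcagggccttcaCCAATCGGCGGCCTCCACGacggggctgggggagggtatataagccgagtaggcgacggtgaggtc
In HSP90AA1 the capitals mark 3 matches to the heat shock element (GAANNTTC or TTCNNGAA), and the first 2 overlap in 1 match to its 3-unit form (GAANNTTCNNGAA or TTCNNGAANNTTC). In HSP90B1 and HSPA5 they mark 2 matches and 1 match to the ER stress element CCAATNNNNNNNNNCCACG on either strand. RefSeq promoters matched 63 members with 82 start sites, and 16 members had no entry. The heat shock element stood before 11 of 20 start sites of the heat-inducible list (55.0%), 0 of 14 of the ER list and 20 of all 82 (24.4%), against 11.6% of 35116 start sites in the RefSeq table. The ER stress element stood before 2 of 14 start sites of the ER list and 0 of 20 of the heat-inducible list, against 0.0740% in the table. The heat shock element did not follow the lists throughout. HSP90AB1, off the heat-inducible list, had 4 matches before 1 of its start sites, and HSPH1, on that list, had 0. These matches describe letters in the window and no binding was measured.

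FLII itself followed the labels in mRNA, cytosol and nuclear RNA: 625, 210 and 252 RPKM in the libraries labelled H1299 FLII overexpression against 143, 70.1 and 67.6 in vector, and 13.8, 8.23 and 11.2 RPKM in those labelled HBE FLII knockdown against 75.3, 62.6 and 86.7 in NC. RPKM is the read count scaled by gene length and library total. In RNC the library labelled H1299 FLII overexpression held less FLII than that labelled vector (5.61 against 89.2 RPKM), against the labels. The RNC library labelled HBE FLII knockdown held 30.0 RPKM against 36.5 in that labelled NC, lower in RPKM but not after TMM scaling (log2 fold 0.12, 0.05 to 0.18). Reads assigned to genes numbered 5914489 to 9259569 outside RNC and 26711771 to 38514467 in RNC. Over 13 epithelial markers the summed level was 789 to 1448 RPKM in the 6 H1299 libraries of mRNA, cytosol and nuclear RNA and 4504 to 7782 in the 6 of HBE, while 4 mesenchymal markers summed to 668 to 2967 and 1.87 to 102 RPKM. The leukocyte marker PTPRC was at 0.0441 RPKM or less in every library. Among the RNC libraries the basal keratin KRT5 stood at 0 RPKM in that labelled H1299 vector, 107 in that labelled H1299 FLII overexpression, 90.8 in that labelled HBE NC and 0.0163 in that labelled HBE FLII knockdown, and the mesenchymal VIM at 69.0, 25.9, 204 and 143. No FLII direction is therefore drawn from RNC, and its libraries are named by their labels. The H1299 FLII overexpression cytosol library held KRT5 at 10.1 RPKM against 0.47 in vector cytosol.

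Members took 1.21% of reads in each H1299 mRNA library and 0.804% and 0.911% in HBE NC and knockdown mRNA, 0.690% and 0.615% in H1299 cytosol (vector, overexpression), 0.360% and 0.344% in HBE cytosol (NC, knockdown), at most 2.03% in H1299 nuclear RNA and 1.16% in each HBE nuclear library. The share was thus higher in nuclear than in cytosolic RNA in all 4 groups, and higher in H1299 than in HBE within each of the 3 fractions. In nuclear RNA HSP90AA1 alone gave 70044 of 123533 member reads in H1299 vector and 11704 of 85062 in HBE NC. The nuclear line difference was therefore not shared by all families. HSP70 and HSP110 genes took 0.241% of reads in H1299 vector nuclear RNA and 0.378% in HBE NC. Outside RNC, 37 members reached 1 RPKM in all 12 libraries. Another 17 stayed under 1 RPKM in all 16 libraries, among them the stress-only HSP70 gene HSPA6, and 7 of these had no read at all (DNAJB8, HSPB3 and 5 HSP90 pseudogenes).

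**Figure D1:**
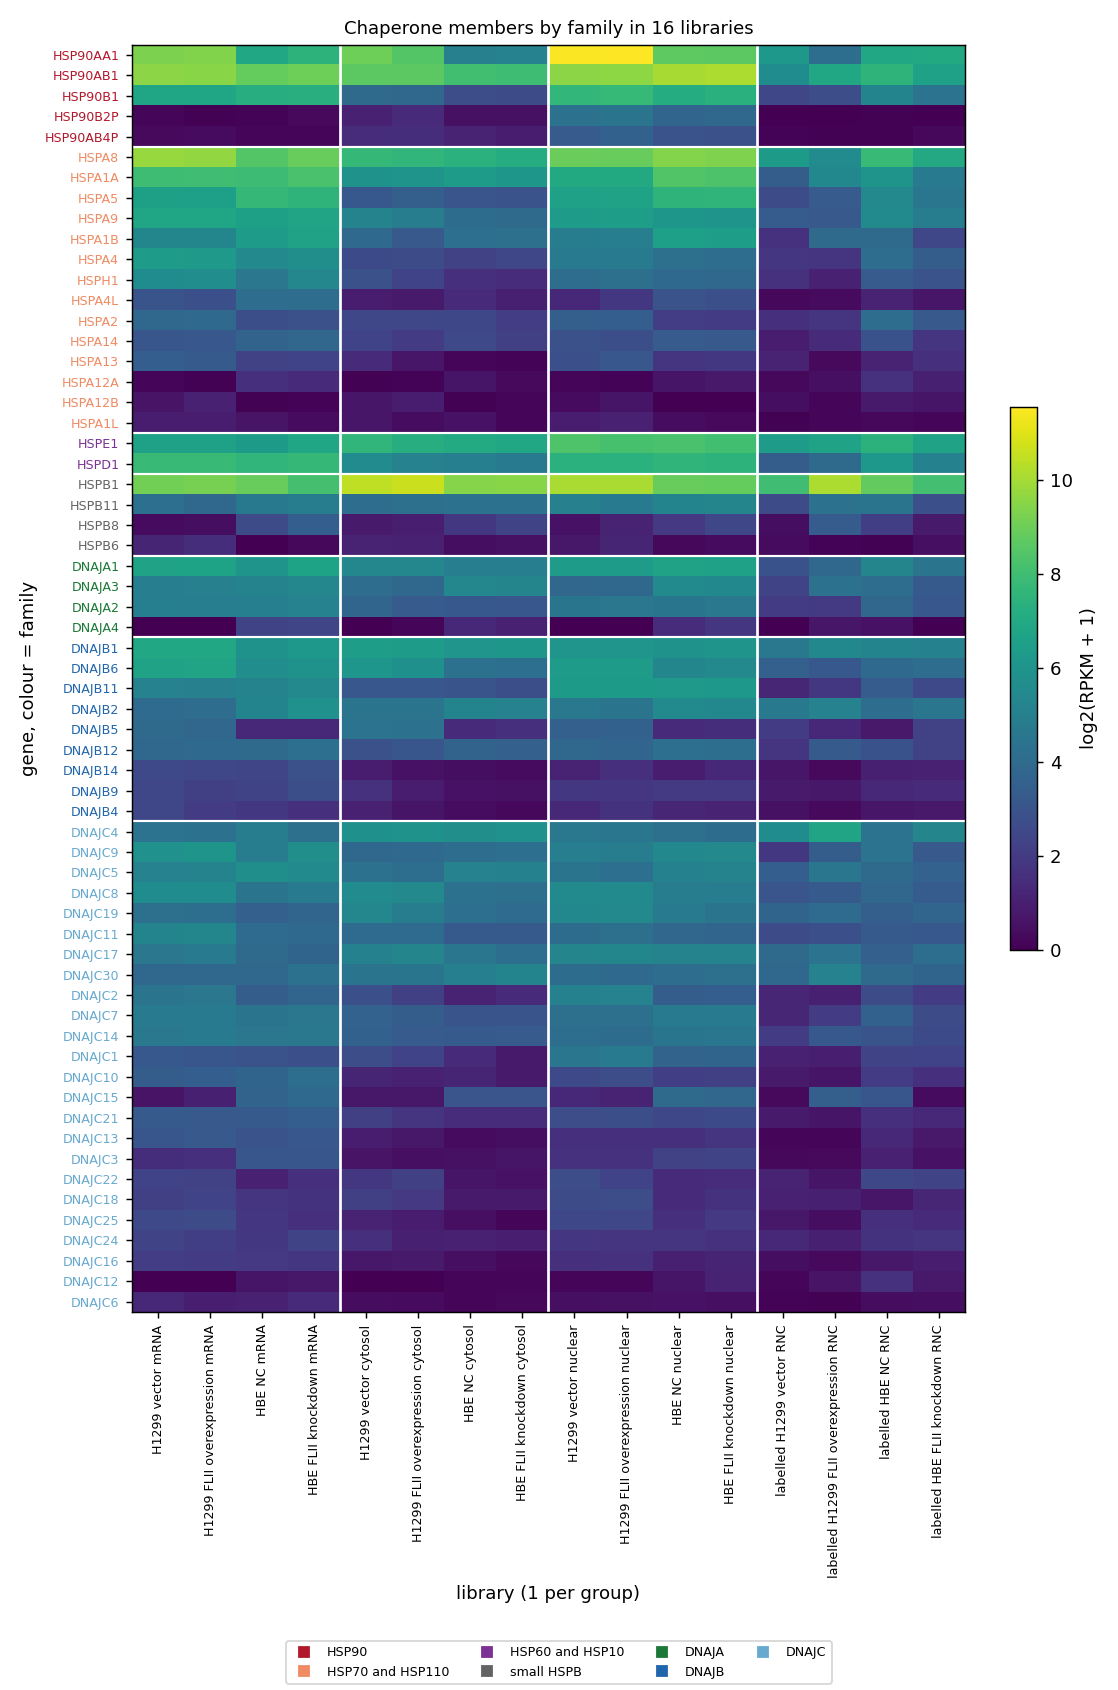
Heat map of log2(RPKM + 1) for the 62 members that reached 1 RPKM in any library (rows, coloured by family) in the 16 libraries (columns, grouped by fraction, RNC libraries by their labels). HSP90AA1 in the H1299 nuclear libraries is the brightest entry, at 2865 and 3017 RPKM, and the rows of DNAJC15 and HSPB8 are dark in H1299 but not in HBE outside RNC.

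Among the HSP90 genes, HSP90AB1, the constitutive cytosolic form, stood at 757, 724, 460 and 517 RPKM in mRNA (H1299 vector, H1299 overexpression, HBE NC, HBE knockdown, the order used below). HSP90AA1, the heat-inducible form, stood at 623, 656, 118 and 176 RPKM, so it nearly equalled HSP90AB1 in H1299 and was well below it in HBE. The ER form HSP90B1 stood at 114, 110, 148 and 152 RPKM. Of the HSP70 genes, the constitutive HSPA8 was highest in mRNA in both lines, at 881, 828, 354 and 470 RPKM. HSPA1A, the classic heat-inducible HSP70, stood at 246, 258, 245 and 298 RPKM. HSPA1A and HSPA1B are near-identical genes: 74.4% of the 30-base words of the HSPA1A transcript occur in HSPA1B, so the split of reads between them is uncertain. HSPB1 (HSP27) was the highest member in cytosolic RNA, at 1407, 1575, 706 and 724 RPKM. Of the J-domain genes, DNAJB1, the main partner of heat-induced HSP70, stood at 116, 121, 61.3 and 70.5 RPKM in mRNA and DNAJA1 at 98.8, 103, 63.1 and 102.

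The first question was whether chaperone transcripts differed with FLII. Outside RNC few did: of 50 to 59 members with enough reads in each of the 6 pairs, none was called higher and 3 calls were lower, 2 in H1299 cytosol and 1 in HBE cytosol. A member was called when its log2 fold after TMM scaling was at least 1 in size and its 95% interval excluded a fold of 1, where both libraries together gave the gene 20 reads or more. With 1 library per group each fold compares those libraries and not the conditions, no p-value is given, and the intervals cover counting error only. In mRNA, cytosol and nuclear RNA of H1299 the members called were 0 of 57, 2 of 59 and 0 of 58, against 0.79%, 2.67% and 0.599% of all genes. In HBE they were 0 of 57, 1 of 50 and 0 of 58, against 4.95%, 1.22% and 0.857% of all genes. The member counts were thus close to these backgrounds. In bulk RNA, fewer cells with a transcript and less of it per cell cannot be told apart.

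The H1299 cytosol calls were ER members. HSPA13, an HSP70-like protein of microsomes, had 16 reads (0.643 RPKM) in FLII overexpression cytosol and 59 (1.60 RPKM) in vector, a log2 fold of −1.21 (interval −2.12 to −0.41). DNAJB9, an ER J-protein that holds the stress sensor IRE1 in check, had 14 reads (0.884 RPKM) against 51 (2.17 RPKM), a log2 fold of −1.19 (−2.18 to −0.33). Neither was called in mRNA (9.79 and 8.69 RPKM for HSPA13, 4.51 and 3.59 for DNAJB9, vector first) or in nuclear RNA (5.98 and 7.72, 2.63 and 2.51). Both had few reads, under 100 over the pair. A minimum of 100 reads therefore leaves both out and cannot test these calls. In this pair the log2 folds went with the GC content of the transcripts (Spearman 0.51 over 59 members, 0.52 over all genes, which share the same 2 libraries), and the overexpression library held the keratin reads given above. Their part in these calls was not tested.

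The best-measured member of that pair was HSP90AA1, at 349 RPKM in FLII overexpression cytosol and 514 in vector, a log2 fold of −0.47 (−0.51 to −0.44). In H1299 mRNA it was 656 against 623 RPKM (0.09, 0.06 to 0.12) and in nuclear RNA 3017 against 2865 (0.04, 0.03 to 0.06). HSP90AA1 was thus lower in 1 fraction and within 0.09 of equality in the others. HSPE1, the co-chaperonin of HSPD1, was lower in cytosol (144 against 194 RPKM; −0.34, −0.46 to −0.22) and in nuclear RNA (296 against 330; −0.19, −0.28 to −0.09). In mRNA HSPE1 was nearly equal, at 95.7 RPKM in FLII overexpression and 96.0 in vector (0.007, −0.15 to 0.17).

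In HBE mRNA no member was called, but 16 of 57 were higher and 8 lower with an interval that excluded a fold of 1 at any size, against 19.4% of all genes higher and 22.5% lower. Of the 12 members of the heat-inducible list with enough reads, 7 were higher and 1 lower by this weaker rule. The 7 include the constitutive HSPA8 (0.28, 0.23 to 0.32). HSPH1, an HSP110 nucleotide exchange factor, stood at 39.3 RPKM in the library labelled FLII knockdown and 22.6 in NC (0.66, 0.52 to 0.80). DNAJA1, a J-protein partner of HSPA8, stood at 102 against 63.1 RPKM (0.57, 0.44 to 0.70), HSP90AA1 at 176 against 118 (0.45, 0.39 to 0.51) and HSPE1 at 114 against 77.7 (0.42, 0.27 to 0.58). HSPB1 went the other way, at 279 against 472 RPKM (−0.89, −0.97 to −0.81). In this pair the log2 folds tended to fall with the GC content of the transcripts. Spearman correlations were −0.17 over 57 members and −0.26 over all genes, which share the same 2 libraries. The part of GC content in these values was not tested.

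The other HBE fractions gave other counts. In cytosol none of the 11 heat-inducible members with enough reads was higher and 3 were lower by the same rule, against 7.41% and 7.1% of all genes. In nuclear RNA 0 of 12 were higher and 7 lower, against 7.49% and 8.91%. The nuclear differences were small: HSPA8 was 645 against 685 RPKM (−0.12, −0.16 to −0.09) and HSP90AA1 403 against 411 (−0.07, −0.10 to −0.03). HSPB1 in nuclear RNA was 454 against 473 RPKM (−0.09, −0.17 to −0.02) and in cytosol 724 against 706. The mesenchymal marker FN1 also differed in the HBE mRNA pair, at 91.6 RPKM in knockdown and 3.61 in NC, while VIM stood at 1.43 and 2.77 RPKM. The 4 mesenchymal markers summed to 102 RPKM in that knockdown library and to at most 11.9 in the other HBE libraries outside RNC. The part of these markers in the member values was not tested.

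Of the 14 ER members, 2 were lower and 2 higher in HBE mRNA of the knockdown by the weaker rule (1 lower and 5 higher with total counts). Over all genes 22.5% were lower and 19.4% higher by this rule, so the ER counts did not exceed the background. HSPA5 stood at 182 RPKM in knockdown and 206 in NC (−0.31, −0.36 to −0.26), and HSP90B1 at 152 and 148 RPKM (−0.10, −0.16 to −0.03), higher in RPKM and lower after TMM scaling. DNAJC10, an ER disulfide reductase, was higher, at 16.8 and 12.4 RPKM (0.31, 0.16 to 0.45), as was DNAJB14, a J-protein of the ER membrane, at 6.21 and 4.32 RPKM (0.39, with a lower bound of 0.0020). Of 13 organelle chaperones that are not members, 12 were lower and 0 higher by the weaker rule, against the same 22.5% and 19.4% of all genes. Their median log2 fold was −0.33 (7 lower with total counts in place of TMM). They included the lectin chaperone CALR (477 against 569 RPKM; −0.39, −0.43 to −0.34) and the mitochondrial HSP90 TRAP1 (199 against 338 reads; −0.75, −1.02 to −0.50). In HBE nuclear RNA 1 of these 13 was lower by that rule and 0 were higher, against 8.91% and 7.49% of all genes. None of the 23 cytosolic co-chaperones, the 14 subunits of the CCT chaperonin and prefoldin or the 5 heat shock factor genes was called in any HBE pair of the 3 fractions, and in H1299 BAG2 was called lower in cytosol.

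**Figure D2:**
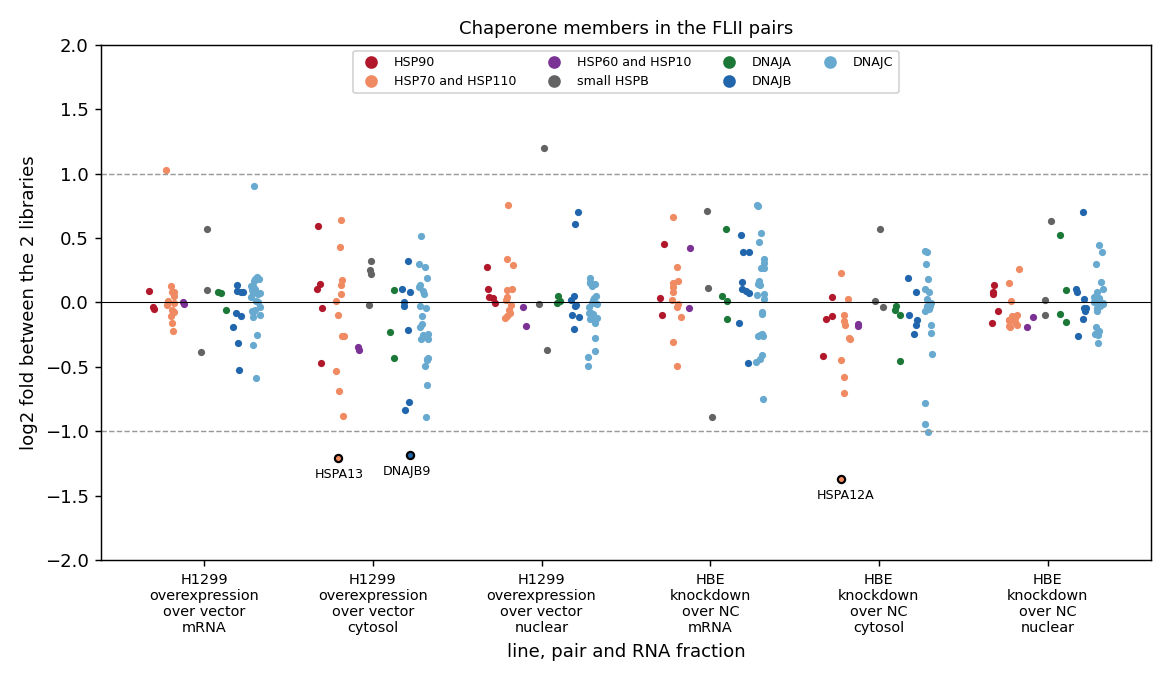
Log2 folds of the members (points, coloured by family) between the 2 libraries of each FLII pair, by line and fraction, with dashed lines at a fold of 2. Outlined and named points are the 3 calls (HSPA13, DNAJB9 and HSPA12A); other points beyond a dashed line have intervals that include a fold of 1.

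HSPA12A, a divergent HSP70-like gene, gave the HBE cytosol call, with 8 reads (0.212 RPKM) in knockdown and 19 (0.561 RPKM) in NC (−1.37, −2.83 to −0.17). It stood at 1.56 against 2.01 RPKM in mRNA and at 0.703 against 0.572 in nuclear RNA, where it was not called.

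The second comparison set the control libraries of the lines against each other, H1299 vector over HBE NC. Members called higher and lower in H1299 were 5 and 9 of 58 in mRNA, 11 and 10 of 60 in cytosol and 9 and 11 of 60 in nuclear RNA, against 43.6%, 48.9% and 45.2% of all genes called in either direction. Whether the member shares differ from these was not tested. With total counts in place of TMM the members called were 11 and 9, 19 and 5, and 10 and 8; that scaling moved the median of all genes up to 0.25, 0.60 and 0.21. Higher in H1299 in all 3 fractions were HSP90AA1, HSPA13, DNAJB5 and DNAJC22, and lower in all 3 were DNAJA4, DNAJC15, HSPB8, HSPA12A, DNAJB2 and HSPA4L. These are 4 and 6 of 58 members with enough reads in each, against 13.4% and 13.5% of all genes.

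HSP90AA1 was the most abundant of these. Its levels were 623 and 656 RPKM in H1299 mRNA against 118 and 176 in HBE, 514 and 349 against 32.0 and 33.5 in cytosol, and 2865 and 3017 against 411 and 403 in nuclear RNA, controls first. Within each fraction the lines did not overlap. The log2 fold between controls was 2.16 (2.11 to 2.22) in mRNA, 3.53 (3.42 to 3.64) in cytosol and 2.62 (2.60 to 2.65) in nuclear RNA. Its close relative HSP90AB1 was called in none of the 3: it was 757 against 460 RPKM in mRNA, 401 against 264 in cytosol and 746 against 1052 in nuclear RNA, which gave 0.48, 0.12 and −0.67 on the log2 scale.

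Several J-domain genes had few or no reads in 1 line. DNAJA4, a cytosolic type A J-protein, had 0 reads in 5 of the 6 H1299 libraries outside RNC and 2 reads in FLII overexpression cytosol, the library that also held keratin reads, whereas HBE NC had 112 reads (4.25 RPKM) in mRNA, 28 (1.49 RPKM) in cytosol and 41 (1.76 RPKM) in nuclear RNA. Against a floor of 3 reads per library it was at least 31.7-fold, 20.4-fold and 13.3-fold lower in H1299 vector. DNAJC15, an inner-membrane J-protein of mitochondria, stood at 0.546 RPKM in H1299 vector and 11.8 in HBE NC mRNA (−4.61, −5.82 to −3.73), at 0.700 against 7.25 in cytosol (−3.80, −4.65 to −3.13) and at 1.43 against 15.0 in nuclear RNA (−3.55, −4.22 to −2.98). DNAJC19, another J-protein of the mitochondrial inner membrane, was not lower in H1299: 18.5 against 10.6 RPKM in mRNA. DNAJB5 was higher in H1299, at 15.0 against 1.56 RPKM in mRNA (3.01, 2.52 to 3.57), 20.2 against 1.63 in cytosol (3.14, 2.59 to 3.77) and 10.5 against 1.66 in nuclear RNA (2.47, 1.95 to 3.06).

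The small heat shock protein HSPB8, which acts with the co-chaperone BAG3 in clearing misfolded proteins, had 3 reads in H1299 vector mRNA and 91 in HBE NC (0.252 and 5.49 RPKM; −4.49, −6.99 to −3.09). It stood at 0.809 against 2.70 RPKM in cytosol (−2.16, −3.21 to −1.29) and 0.476 against 2.79 in nuclear RNA (−2.63, −4.26 to −1.49). BAG3 itself was not called in mRNA (56.5 against 65.7 RPKM) and was called lower in cytosol and nuclear RNA (27.3 against 65.0 RPKM in the latter). HSPB1 was nearly equal in mRNA of the controls (554 and 472 RPKM; −0.01) and higher in H1299 in nuclear RNA (1089 and 473; 1.03, 0.96 to 1.09).

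ER members split between directions. HSPA5 was lower in H1299 in mRNA (94.2 against 206 RPKM; −1.37, −1.44 to −1.30) and nuclear RNA (97.2 against 180; −1.07), and DNAJC3, an ER J-protein also known as an inhibitor of eIF2alpha kinases, in mRNA (1.84 against 7.41 RPKM; −2.24, −2.67 to −1.86) and nuclear RNA (2.10 against 3.90; −1.07, −1.49 to −0.66). HSPA13 was higher in all 3 fractions (mRNA 9.79 against 3.76 RPKM; 1.14, 0.82 to 1.47). The median of the ER members was −0.13 in mRNA (0.10 with total counts), 0.49 in cytosol and 0.29 in nuclear RNA, against 0.01, 0.12 and 0.03 over all genes. The non-member ER chaperones HYOU1 and PDIA4 were called lower in H1299 in all 3 fractions. Of the heat shock factors, HSF2 was called higher in all 3, at 9.73 against 2.51 RPKM in mRNA, and HSF1 higher in mRNA alone, at 151 against 61.7.

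Over all 6 libraries of each line, TMM-scaled levels (counts per library of common size, CPM) of 6 members lay wholly above HBE in H1299 and of 11 wholly below, with 49 of 66 overlapping, so 17 were separated, against 27.2% of all genes. The widest gaps were those of DNAJA4, DNAJC15, HSPB8 and HSPA12A below, and of DNAJB5, DNAJB6 and DNAJC22 above. DNAJB6, a suppressor of protein aggregation, ranged from 170 to 189 CPM in H1299 and from 70.9 to 113 in HBE. DNAJA3, a mitochondrial J-protein, ranged from 32.0 to 62.4 in H1299 and from 82.9 to 174 in HBE. HSP90AA1 was not among them, because its HBE nuclear level (1679 in NC) just passed its H1299 mRNA level (1666 in vector). Without the H1299 FLII overexpression cytosol library the counts were again 6 and 11.

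**Figure D3:**
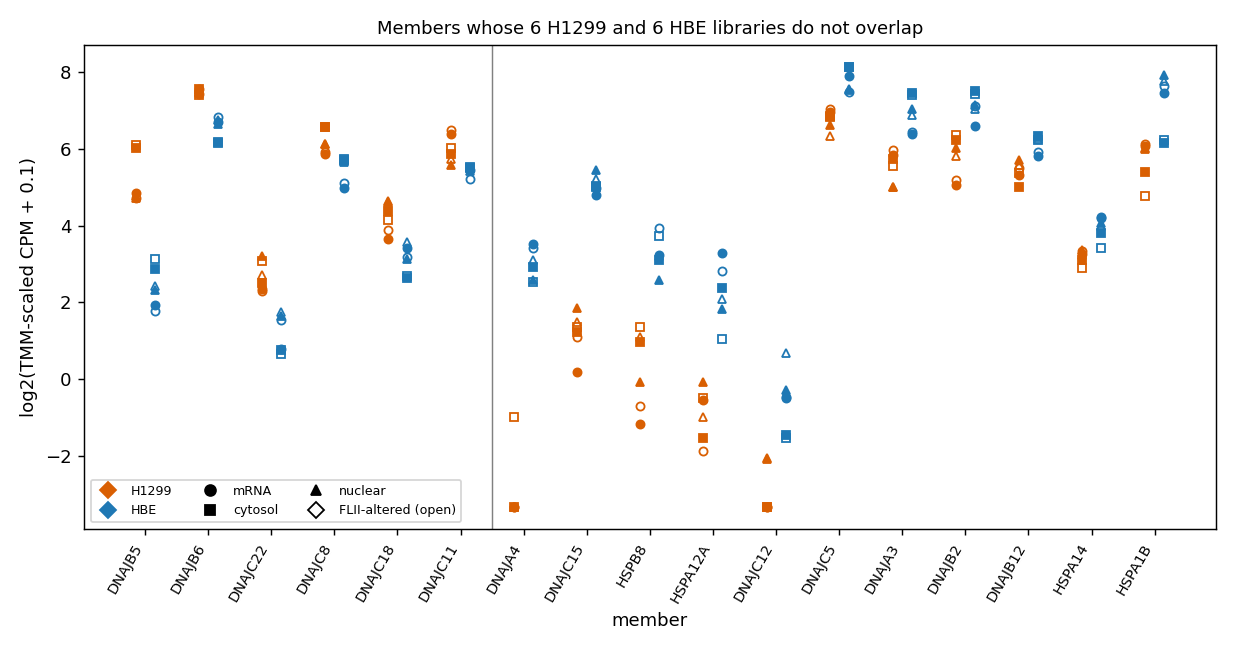
TMM-scaled CPM, as log2(value + 0.1), of the 17 members whose 6 H1299 and 6 HBE libraries do not overlap, by line (colour), fraction (shape) and FLII state (open where altered). The 6 members left of the grey line lie higher in H1299 and the 11 to its right lower, and DNAJA4 lies at the bottom in H1299 because it has no reads in 5 of 6 libraries.

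The third comparison was nuclear over cytosolic RNA of the same group, by which the study addressed mRNA traffic. Chaperone transcripts leaned to the nuclear fraction. Members called higher and lower in nuclear RNA were 16 and 3 of 60 in H1299 vector, 21 and 5 of 59 in H1299 FLII overexpression, 25 and 4 of 58 in HBE NC and 28 and 3 of 58 in HBE knockdown, against 27.5%, 36.1%, 39.8% and 41.4% of all genes called in either direction. Their medians were 0.47, 0.53, 0.83 and 1.07, against 0.03, 0.06, 0.09 and 0.12 over all genes. With total counts the calls were 26 and 1, 33 and 1, 38 and 1, and 41 and 1, and the median of all genes moved to 0.32, 0.59, 0.66 and 0.73. How the fractions were separated is not given in the sources used here. The RNA of MALAT1, which stays in the nucleus, was called higher in nuclear RNA of both controls (3.38 in H1299 vector, 3.82 in HBE NC).

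ER chaperones had higher medians than the other lists of members. Of 14 ER members, 9, 9, 8 and 11 were called higher in nuclear RNA in the 4 groups and none lower, with medians of 1.59, 1.80, 1.83 and 2.17. Over all genes 27.5%, 36.1%, 39.8% and 41.4% were called in either direction, and no share by direction is given. HSP90B1 stood at 202, 211, 141 and 159 RPKM in nuclear RNA and at 14.9, 13.7, 5.67 and 5.36 in cytosol, log2 folds of 3.45 (3.31 to 3.61), 3.41 (3.23 to 3.61), 4.04 (3.76 to 4.36) and 4.27 (3.99 to 4.58). HSPA5 stood at 97.2, 101, 180 and 187 RPKM in nuclear RNA and at 8.16, 10.4, 7.37 and 6.77 in cytosol (3.27, 2.74, 4.02 and 4.17). DNAJB11, the ER partner of HSPA5, gave 3.04, 2.79, 2.79 and 2.97. All 3 were thus several-fold higher in the nuclear library in every group, with no overlap between nuclear and cytosolic levels.

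The lower ER members varied more. HSPA13 gave 1.60 (1.16 to 2.07) and 3.02 (2.32 to 3.89) in H1299, and in HBE, where cytosol held 3 and 2 reads, 3.47 (2.02 to 5.94) and 4.30 (2.63 to 7.60). DNAJB9 was near 0 in H1299 vector (−0.02, −0.65 to 0.60) and at 1.99 (0.91 to 3.43) in HBE NC. DNAJC10 was called in 3 of the 4 groups and gave 0.81 (0.36 to 1.29) in HBE NC. DNAJB12, DNAJC14 and DNAJC18, membrane J-proteins of the ER, were called in none. Of the 13 organelle chaperones that are not members, 6 were called higher in each control, and these were the same genes: the ER proteins HYOU1, SIL1, CALR, CANX, PDIA4 and PDIA6. TRAP1 was called lower in H1299 vector.

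Mitochondrial members were called in both directions: medians were −0.22, 0.09, −0.02 and −0.07 over 9 members (0.08, 0.63, 0.57 and 0.54 with total counts), with 1, 2, 2 and 2 called higher and 1, 2, 2 and 2 lower. The shares of all genes called in either direction were 27.5%, 36.1%, 39.8% and 41.4%. HSPD1 (HSP60) was called higher in every group (1.53, 1.75, 2.03 and 2.08), from 164, 164, 188 and 178 RPKM in nuclear RNA and 46.0, 33.5, 30.5 and 27.4 in cytosol. HSPE1 (HSP10) was not called in any: 0.46, 0.50, 0.57 and 0.53, from 330, 296, 299 and 269 RPKM and 194, 144, 134 and 121. HSPD1 and HSPE1 were thus both higher in nuclear RNA in every group, and only HSPD1 reached a fold of 2. Their RefSeq start sites lie on opposite strands of chromosome 2, at 197500274 for HSPD1 and 197500379 for HSPE1 (GRCh38.p14), 105 bases apart. A further HSPD1 start site lies at 197499840, 539 bases from that of HSPE1, and its window holds 3 matches to the heat shock element, while the windows of the other 2 sites hold 0. DNAJC4 was called lower in every group (−1.49, −1.93, −2.06 and −2.40), and DNAJC30 in all but H1299 vector (−0.68, −1.08, −1.47 and −1.59).

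Heat-inducible members also leaned to nuclear RNA by their medians of 0.70, 0.95, 1.46 and 1.59. Called higher were 3, 6, 9 and 9 of 12 and lower 0, 1, 1 and 1, against 27.5%, 36.1%, 39.8% and 41.4% of all genes in either direction. The mitochondrial HSPD1 is counted here too, among those called higher in every group. HSP90AA1 gave 2.18 (2.16 to 2.20), 2.58 (2.55 to 2.61), 3.09 (2.99 to 3.20) and 2.97 (2.87 to 3.07), and HSPH1 gave 1.13, 1.63, 2.29 and 2.36. HSPB1 went against them (−0.67, −1.05, −1.17 and −1.29), as did DNAJB1 (−0.75, −0.87, −0.70 and −0.77), which was not called. The HSP110-type HSPA4 was called higher in every group (2.06, 1.69, 1.66 and 1.24). HSPA8, constitutive but on the heat-inducible list, was called higher in HBE (1.46 and 1.59) and not in H1299 (0.96 and 0.72). In all, 14 members were called higher in all 4 groups, of 56 with enough reads in each, against 8.46% of all genes, and 1 (DNAJC4) lower, against 9.02%. The 14 include the pseudogenes HSP90B2P and HSP90AB4P, whose reads are uncertain, as given below.

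Nuclear over cytosol went with base composition over all genes. Across the members, Spearman correlations with GC content were −0.46, −0.65, −0.56 and −0.58 over 60, 59, 58 and 58 genes, and over all genes −0.44, −0.62, −0.61 and −0.62; genes of a pair share the same libraries and are not replicates. The part of GC content in the member values was not tested. The pseudogene HSP90B2P gave 3.80, 3.19, 4.24 and 4.30, like HSP90B1, with which it shares 21.7% of its 30-base words. Its reads were 7.07% to 11.1% of those of HSP90B1 in cytosol and 8.41% to 9.60% in nuclear RNA but 0.0381% to 0.153% in mRNA, so HSP90B2P is reported as uncertain. The reads of the pseudogene HSP90AB4P were 0.364% to 0.479% of those of HSP90AB1 in cytosol and 0.578% to 1.51% in nuclear RNA. In mRNA they were 0.0284% to 0.0366%, so HSP90AB4P is uncertain too. No fold was taken between mRNA and another fraction, and the separation of the lines over 6 libraries each is the comparison that sets these fractions side by side.

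**Figure D4:**
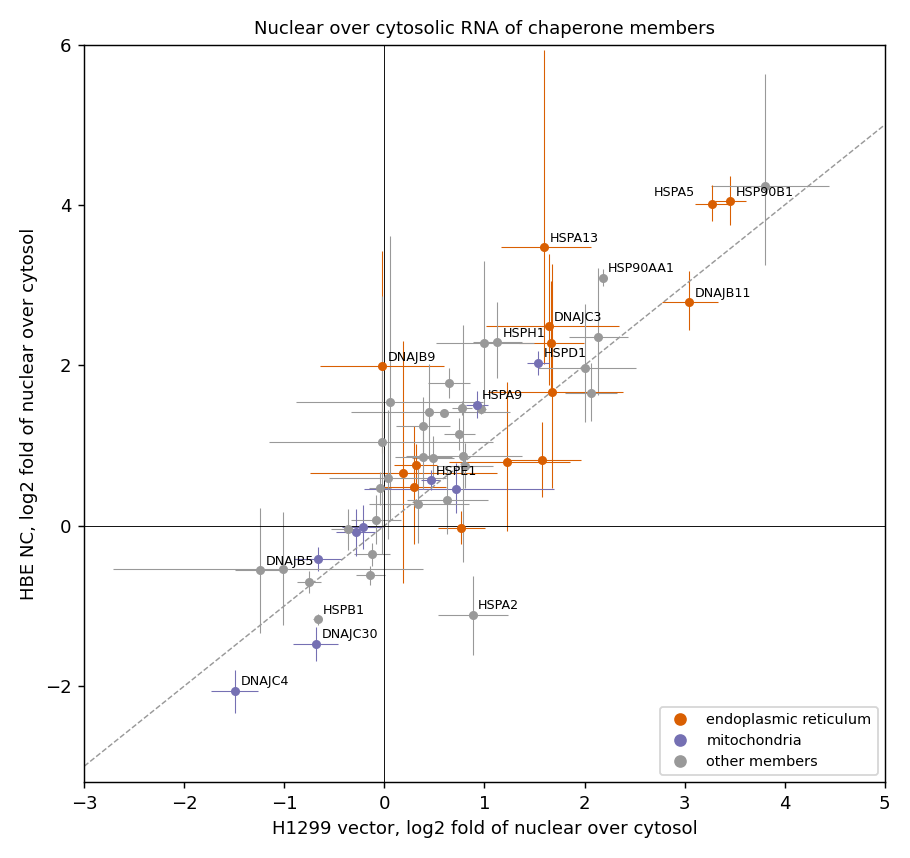
Log2 fold of nuclear over cytosolic RNA in HBE NC (y axis) against H1299 vector (x axis) for members with enough reads in both, with 95% counting intervals and a dashed line of equality, coloured by compartment list. HSP90B1 (3.45 and 4.04), HSPA5 and DNAJB11 lie at the upper right and DNAJC4 (−1.49 and −2.06) at the lower left, while HSPA2 lies right of 0 in H1299 and below 0 in HBE.

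The change of this ratio with FLII (the difference of the log2 folds of the 2 groups of a line) was called for 1 member higher and 1 lower of 59 in H1299, against 4.19% of all genes, and for 1 higher of 58 in HBE, against 1.53%. In H1299 these were HSPA13 (1.42, 0.58 to 2.27) and DNAJC22, a J-protein with several membrane spans (−1.13, −1.94 to −0.32). In HBE it was HSPA12A (1.63, 0.24 to 3.01). HSPA13 and HSPA12A are the genes with the few cytosolic reads given above. DNAJC22 also had few reads, 65 and 48 in nuclear RNA and 45 and 41 in cytosol of H1299 (vector first). The H1299 shift went with GC content (Spearman −0.39 over 59 members, −0.52 over all genes, which share the same 4 libraries). The part of GC content in these calls was not tested. Among abundant members, HSP90AA1 shifted by 0.40 in H1299 and HSPA5 by −0.53, neither reaching a fold of 2.

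The RNC libraries are given by label only. Members took 0.152% to 0.382% of their reads, a range that overlaps the share in cytosol. Some line-separated members went against the labels of 2 of these libraries. DNAJC15 stood at 0.220 RPKM in the library labelled H1299 vector, 10.2 in that labelled H1299 FLII overexpression, 7.57 in that labelled HBE NC and 0.270 in that labelled HBE FLII knockdown. HSPB8 followed the same order of libraries at 0.332, 9.44, 3.36 and 0.785 RPKM, and DNAJA4 at 0, 0.619, 0.458 and 0. DNAJB5, higher in H1299 elsewhere, stood at 3.14, 1.54, 0.710 and 3.69 RPKM. HSP90AA1 stood at 69.9, 17.4, 122 and 128 RPKM, a pattern that follows neither line. DNAJC15, HSPB8 and DNAJA4 were thus higher in the libraries labelled H1299 FLII overexpression and HBE NC than in the other pair. Other members did not follow this order. Of those lower in H1299 elsewhere, DNAJB2 had 2872, 4044, 1762 and 1839 reads and HSPA12A had 38, 82, 419 and 154. DNAJC22, higher in H1299 elsewhere, had 84, 41, 297 and 205 reads. Between the libraries labelled FLII overexpression and vector 15 members were called higher and 10 lower of 61, against 49.2% of all genes, and between those labelled FLII knockdown and NC 5 higher and 7 lower of 61, against 30.7%.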

How the data were processed

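Each of the 16 libraries came with the authors' table of read counts per gene, in which splice variants were merged, per the file headers. Reads were deposited beside RPKM values; RPKM was checked on the tables to be the count scaled by gene length and by the library total. The submitters' processing notes name GRCh37 and hg19; which aligner and counter were used is not given in the sources used here. RNA was polyadenylated, per the labels.

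For each comparison, read counts were scaled by TMM (edgeR 4.0.16, R 4.3.3) with 0.5 reads added, for genes with at least 20 reads in the 2 libraries. The 95% intervals are exact binomial (Clopper-Pearson) intervals on the split of reads; those of a difference of nuclear-over-cytosol folds come from inverse counts. They cover counting error only. The procedure was tested on simulated data. Alternatives were total counts, DESeq2 1.42.0 size factors, other read minimums, 5 reads added, and deposited RPKM with 1 added. Figures used Python 3.11.15 and matplotlib 3.10.9.

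Members, lists and tests were chosen with earlier results of these data known. Genes named were FLII, 26 well-known members, members called in an FLII pair or shift outside RNC, the 8 widest gaps between lines in each direction, and the 5 highest and 5 lowest in nuclear over cytosol of each control. Other members and genes named (such as HSPA4L, DNAJC19, DNAJC14 and BAG3) were chosen after their values were seen.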

Additional observations from a re-analysis of the deposited data

Results flagged for a closer look

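For HSPA2, a testis-enriched HSP70, the log2 fold of nuclear over cytosolic RNA was above 0 in both H1299 groups (0.88 in vector and 0.64 in FLII overexpression) and below 0 in both HBE groups (−1.11 in NC and −0.68 in FLII knockdown). The lines thus gave opposite directions, and the difference was not tested.

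For HSPA8, the constitutive cytosolic HSP70, the log2 fold of H1299 over HBE was above 0 in mRNA (1.07 between the controls and 0.73 between the FLII-altered libraries) and below 0 in nuclear RNA (−0.66 and −0.66). The fractions thus gave opposite directions, and the difference was not tested.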

How the results depend on the processing

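No paired analysis was possible because each group has 1 library. Of the summary values recomputed under an alternative, 195 kept within 1.5 times (counts) or close to (medians) the reported value and 43 did not. No called value of a named gene changed sign. With total counts some list medians changed sign, among them those of the ER members in HBE mRNA (−0.08 to 0.05) and in the mRNA contrast of the lines (−0.13 to 0.10), and those of the mitochondrial members in nuclear over cytosol of H1299 vector (−0.22 to 0.08), HBE NC (−0.02 to 0.57) and HBE knockdown (−0.07 to 0.54). With total counts the balance of calls also turned in the mRNA (5 and 9 to 11 and 9) and nuclear (9 and 11 to 10 and 8) contrasts of the lines. The cause was not tested. With total counts, members called higher and lower were 2 and 12 in the HBE RNC pair, 11 higher in the mRNA contrast of the lines, and 19 and 5 in the cytosol contrast. In nuclear over cytosol they were 26 and 1 (H1299 vector), 33 and 1 (H1299 FLII overexpression), 38 and 1 (HBE NC) and 1 lower (HBE knockdown), where the ER median was 2.77. The H1299 shift had 4 higher and 0 lower. With at least 100 reads, 0 members were lower in each cytosol FLII pair, 5 were lower in the cytosol and in the nuclear contrast of the lines, and 2 lower in H1299 FLII overexpression nuclear over cytosol. The ER median in HBE NC was then 2.52, and the H1299 shift had 0 lower and the HBE shift 0 higher. The members called in the cytosol FLII pairs had under 100 reads there, as had DNAJC22 and HSPA12A in the shifts. This minimum left them out and could not test those calls. With deposited RPKM and 1 added, 0 members were lower in each cytosol FLII pair, 1 lower in the H1299 RNC pair and 1 higher in the HBE RNC pair. The line contrasts then had 12 higher in mRNA, 4 lower in cytosol and 7 lower in nuclear RNA. Nuclear over cytosol had 1 lower in each of the 4 groups, with an ER median of 1.58 in HBE knockdown, and the H1299 shift had 0 higher and 0 lower and the HBE shift 0 higher. With no minimum beyond 1 read the H1299 shift had 2 higher. Separation of the lines gave 6 members below with total counts and 6 below with deposited RPKM. With the RNC libraries under their labels it gave 2 above and 0 below, and without both HBE mRNA libraries 6 above and 12 below. Depth limits genes such as HSPA13, with under 20 cytosolic reads in 3 of 4 groups.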
